A study of Mus musculus with 46 samples.

Results

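The core circadian clock genes Arntl, Clock, Per1, Per2, Per3, Cry1, Cry2, Nr1d1, Nr1d2 and Dbp were followed across all islet and liver groups of a mouse RNA-seq study of genes that maintain mitochondria. They were chosen by symbol, and all 10 were found among the 55487 genes listed in each file. The study held 46 libraries in 11 groups from 3 experiments. Tfam encodes a factor that packages and transcribes mitochondrial DNA, Clec16a a regulator of mitophagy, the removal of faulty mitochondria, while mitofusins, which join mitochondria, come from Mfn1 and Mfn2.

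The first experiment held islets labelled Tfam control (5 libraries from females, 3 from males) or Tfam KO (4 from females, 2 from males). The second held islets labelled Clec16a control (4 on RFD, 6 on HFD) or Clec16a KO (4 on RFD, 5 on HFD), where the labels do not spell out the diets. In the third, livers were labelled control (6), Mfn DKO (4) or Tfam KO (3), all with AAV in their descriptions. RNA came from islets after a night in culture and from livers frozen at once. The labels give no age, strain, allele, Cre driver or viral promoter, no sex outside the Tfam islets, and no time of day at which tissue was collected. Samples are titled as biological replicates, with no word on whether animals were pooled.

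The circadian clock is a feedback loop of transcription. ARNTL (also called BMAL1) pairs with CLOCK and activates genes that carry E-boxes, among them the Per, Cry, Nr1d and Dbp genes. The PER and CRY proteins then inhibit the pair, the REV-ERB receptors encoded by Nr1d1 and Nr1d2 repress Arntl, and DBP activates genes that carry D-boxes, so that Arntl and Dbp peak at opposite times of day. In the islet the loop is known to time insulin secretion, and in the liver to time glucose, lipid and bile acid metabolism.

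Total counts per library ran from 16235173 to 83342809, so each member was measured on at least 38 counts. Tfam was lower by 1.21 on the log2 scale in Tfam KO islets and by 2.0 in Tfam KO livers, and Mfn1 and Mfn2 were lower by 2.0 and 2.04 in Mfn DKO livers. Clec16a differed by 0.13 and 0.08 between the libraries labelled Clec16a KO and control on RFD and HFD, so its level did not show that label, and a deletion within the gene need not lower its count. Markers of islet endocrine cells summed to between 156303 and 410424 CPM (library-scaled counts) in the islet libraries and to at most 0.291 CPM in the livers, where Alb and 5 other hepatocyte markers summed to between 20682 and 133891 CPM. Xist, transcribed from the inactive X chromosome, exceeded 100 CPM in 7 of the 13 livers and lay below 1 CPM in the other 6, in each of the 3 liver groups.

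The promoters were read to show which clock motifs lie at the members' start sites. RefSeq windows from 250 bases before to 50 bases after a start (GRCm38.p6) were found for 9 of the 10 genes, and Per2 is named only. Both strands were searched for the E-box CACGTG, its variant CACGTT, the D-box TTATGTAA and the AGGTCA half-site to which REV-ERB receptors bind. These motifs do not overlap in the matches given. Per3 is shown because it held 2 D-boxes, a motif found in 0.938% of all 32851 windows and found at least 2 times in 0.0213% of them. Per1 and Cry1 are shown because they held the E-box, found in 7.15% of all windows, and Arntl because its start site held the half-site, found in 16.3%. Capitals mark the D-boxes in Per3, the E-box in Per1 and Cry1, and the half-site in Arntl, and all sequences run 5′ to 3′ along the gene. The Per1 window lies inside the annotated Per1 gene, in an intron of a longer transcript, and the Cry1 window reaches into the first exon.

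Per3, chr4:151044666-151044915, minus strand, the 250 bases before the start: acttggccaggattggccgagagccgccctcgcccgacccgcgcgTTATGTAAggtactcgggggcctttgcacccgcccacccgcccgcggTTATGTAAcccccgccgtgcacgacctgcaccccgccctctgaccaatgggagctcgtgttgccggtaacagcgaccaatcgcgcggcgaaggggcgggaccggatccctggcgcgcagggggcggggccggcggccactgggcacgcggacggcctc
Per1, chr11:69098699-69098948, plus strand, the 250 bases before the start: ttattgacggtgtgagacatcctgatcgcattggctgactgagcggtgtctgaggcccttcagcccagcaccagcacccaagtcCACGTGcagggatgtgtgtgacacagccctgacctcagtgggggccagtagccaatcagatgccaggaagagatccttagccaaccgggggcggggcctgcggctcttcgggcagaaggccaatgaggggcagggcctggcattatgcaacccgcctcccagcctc
Cry1, chr10:85185055-85185304, minus strand, the 250 bases before the start: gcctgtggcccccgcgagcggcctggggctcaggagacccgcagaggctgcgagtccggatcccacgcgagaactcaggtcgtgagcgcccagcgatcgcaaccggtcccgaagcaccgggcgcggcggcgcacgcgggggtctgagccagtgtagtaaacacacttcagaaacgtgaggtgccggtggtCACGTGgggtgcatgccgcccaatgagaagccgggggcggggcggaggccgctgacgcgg
Arntl, chr7:113207530-113207559, plus strand, within the first exon: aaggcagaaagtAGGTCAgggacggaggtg

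The D-boxes of Per3 began 205 and 158 bases before the start, the E-box of Per1 166 bases and that of Cry1 60 bases before it. The variant E-box CACGTT, found in 4.68% of all windows, occurred in Cry1, Cry2 and Nr1d1. Clock, Per1 and Nr1d2 also held the receptor half-site. None of these letters occurred in the window of Dbp, which speaks only of these 300 bases.

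Compared per length, Arntl had the lowest mean level of the 10 genes in 10 of the 11 groups and Per3 in the other, the Tfam KO females. Mean deposited TPM (a length-scaled share of transcripts) of Arntl ran from 0.698 in control livers to 7.12 in Tfam KO female islets. Its partner Clock was higher in every group, from 4.37 TPM in control livers to 30.4 TPM in Tfam KO female islets. Since TPM is a share of all transcripts, these ranges do not measure differences between groups. The highest mean level belonged to Nr1d2, Dbp or Nr1d1, for example Nr1d2 at 88.1 ± 9.97 TPM (SD, n = 3) in Tfam control males and Dbp at 109 ± 37.0 TPM (SD, n = 4) in Clec16a controls on RFD. In control livers the order was Dbp at 65.5 ± 29.3, Nr1d2 at 41.3 ± 6.06, Nr1d1 at 28.1 ± 14.2, Per1 at 25.6 ± 6.48 and Per2 at 25.0 ± 7.14 TPM (SD, n = 6), followed by Cry2 at 17.8 ± 2.69, Cry1 at 14.5 ± 4.80, Per3 at 12.2 ± 3.13, Clock at 4.37 ± 1.04 and Arntl at 0.698 ± 0.389 TPM. The means of Nr1d1, Per1 and Per2 lay closer together than their SDs, while Clock and Arntl each lay further below the gene before them than either SD.

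Libraries of 1 group differed more in Arntl than in any other member. Its SD around the group means on the log2 CPM scale was 0.88 for Tfam islets, 0.59 for Clec16a islets and 1.08 for livers. The medians over all tested genes were 0.24, 0.26 and 0.35, and 6.73%, 16.1% and 5.71% of tested genes had a larger SD than Arntl. Per3 had SDs of 0.82, 0.45 and 0.63 and Dbp of 0.62, 0.50 and 0.83. Clock and Cry2 had SDs between 0.18 and 0.36.

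To ask which clock genes differed when Tfam was targeted, KO and control islets were compared with sex as an additive term. Of the 10 members, 4 were called (adjusted p at most 0.05) by edgeR's quasi-likelihood test with Benjamini-Hochberg adjustment, and all 4 were lower: Per1, Per2, Per3 and Dbp. Among all 19752 tested genes 20.9% were called, 9.29% as lower. At an unadjusted edgeR p under 0.05 there were 9 of the 10 members, against 6528 of all tested genes. The median log2 fold change of the 10 members was -0.46 and that of all tested genes -0.01. In these bulk libraries, fewer cells of a type and less RNA per cell cannot be told apart. Nor can genotype and time of collection, which is not labelled, for genes that cycle over the day.

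Per3, a period gene that is dispensable for the core rhythm, measured 60.8, 59.3, 10.9, 11.1 and 27.97 CPM in the 5 control females and 41.9, 45.2 and 50.7 CPM in the 3 control males. Its levels were 23.6, 16.2, 12.3 and 11.8 CPM in the 4 KO females and 21.3 and 18.5 CPM in the 2 KO males. The control females fell on both sides of the KO females, with replicates 3 and 4 the lowest of all 14 libraries, whereas the males did not overlap. Per3 was 2.19-fold lower in KO islets, a log2 fold change of -1.13 ± 0.35 (SE) with an edgeR adjusted p of 0.0295, and it was called in 7 of the 14 fits that left out 1 library.

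Per2, an inhibitor of the ARNTL and CLOCK pair, measured 53.5, 54.2, 24.8, 22.3 and 33.2 CPM in control females and 75.1, 64.3 and 55.5 CPM in control males. In KO islets it measured 31.2, 29.2, 26.1 and 27.8 CPM in females and 37.4 and 31.9 CPM in males. Here too the females overlapped and the males did not. Per2 had a log2 fold change of -0.57 ± 0.19 (SE) with an edgeR adjusted p of 0.0402, a call made in 4 of those 14 fits.

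Per1, a period gene that outside signals induce quickly, measured 79.0, 55.0, 37.5, 36.2 and 42.7 CPM in control females and 116, 71.6 and 79.9 CPM in control males. KO females had 32.4, 45.1, 41.0 and 24.3 CPM and KO males 57.4 and 52.9 CPM. Control females 1 and 2 lay above every KO female, and the 3 control males above both KO males. Per1 had a log2 fold change of -0.56 ± 0.18 (SE), with an edgeR adjusted p of 0.0392, a call made in 7 of those 14 fits.

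Dbp, the D-box activator at the output of the loop, measured 83.3, 86.1, 26.3, 47.1 and 54.6 CPM in control females and 42.4, 107 and 97.5 CPM in control males. KO libraries lay at 45.3, 31.6, 26.9 and 20.7 CPM in females and at 29.3 and 39.5 CPM in males. Control female 3 fell among the KO females, and the males were separate. Dbp was 2.07-fold lower in KO islets, a log2 fold change of -1.05 ± 0.27 (SE) with an edgeR adjusted p of 0.0104, and this call was made in all 14 fits that left out 1 library.

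Arntl, the activator that peaks opposite to Dbp, measured 4.22, 4.34, 22.4, 19.7 and 18.0 CPM in control females and 4.99, 2.13 and 2.93 CPM in control males. In KO islets it measured 10.3, 20.4, 21.1 and 24.9 CPM in females and 11.03 and 9.01 CPM in males. Control females 3 to 5 thus resembled the KO females, and control females 1 and 2 the control males. The log2 fold change was 0.87 ± 0.38 (SE) with an edgeR adjusted p of 0.117, not called.

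The other members were not called either. Nr1d2, a REV-ERB receptor gene, had a log2 fold change of -0.57 with an edgeR adjusted p of 0.0536, and its paralog Nr1d1 one of -0.35 with 0.101. Cry1, a repressor that acts late in the cycle, had 0.36 with 0.0628, Clock 0.21 with 0.100 and Cry2 0.12 with 0.505. None of the 10 genes separated all KO from all control libraries, against 7.49% of all tested genes.

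**Figure D1:**
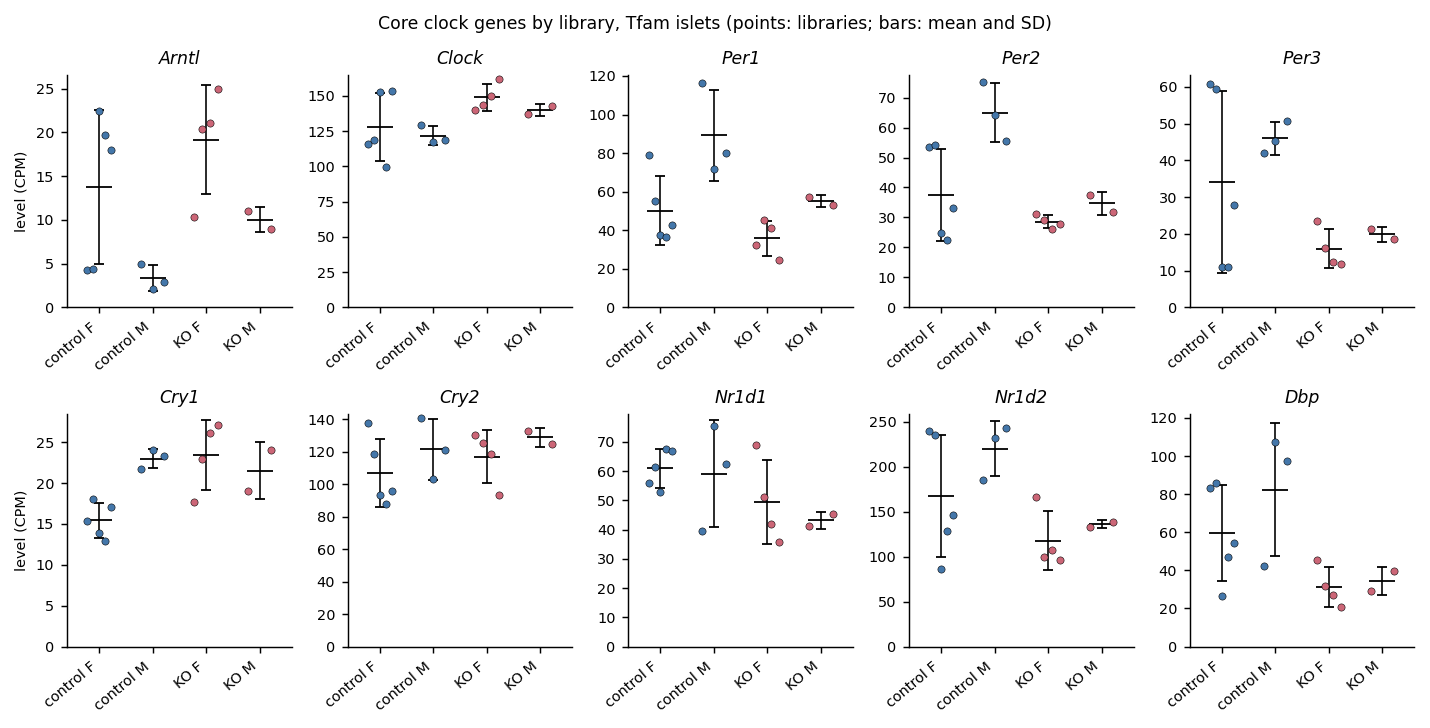
Level of each core clock gene in CPM (vertical axis, from 0) in the 14 Tfam islet libraries by genotype and sex, with points for libraries and bars for mean and SD. Control females split into replicates 1 and 2 and replicates 3 to 5 in Arntl. The 3 control and 2 KO males do not overlap in Arntl, Clock, Per1, Per2, Per3, Nr1d2 or Dbp. For groups this small no share over all genes was taken, so whether these separations are unusual among genes cannot be told.

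Fits of each sex alone changed which members were called. Per1 and Dbp, called with both sexes together, were called in neither sex alone. In the 5 male libraries, 4 members were called by edgeR with Benjamini-Hochberg adjustment: Arntl at 1.57 ± 0.33 (SE, log2, adjusted p = 0.0244), Nr1d2 at -0.70 ± 0.12 (adjusted p = 0.0135), Per2 at -0.92 and Per3 at -1.22. In the 9 female libraries only Cry1 was called, at 0.60 ± 0.14 (adjusted p = 0.0168), while in males it had -0.11. Among all genes, 1704 of the 17675 tested were called in females. The share over all genes in males is not given here. The difference between the sexes in the genotype effect was not called for any member (lowest edgeR adjusted p 0.672, Cry1), with 1 member at an unadjusted p under 0.05, none called by DESeq2, and no gene called among all 19752. The count of 4 fell to 1 without control female 1 or 2, KO female 4 or KO male 2, fell to 2 without KO female 2 or 3 or KO male 1, and rose to 6 without control female 3 or KO female 1. Without a sex term 2 members were called, Per3 and Dbp. The DESeq2 Wald test called 6, adding Cry1 and Nr1d2, as did edgeR without a filter on low counts.

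Further genes of the loop were followed in lists of accessory factors, factors that bind D-boxes, kinases and turnover proteins, and rhythmic outputs. Among the accessory factors reported here, Rora, a receptor that competes with the REV-ERBs, rose by 0.49 ± 0.07 and Ciart, a repressor of the pair, by 1.05 ± 0.30 (log2, SE, edgeR adjusted p of 0.000193 and 0.0195), and none fell. Among the D-box factors, Nfil3, which opposes Dbp, rose by 1.17 ± 0.35 and Tef, a paralog of Dbp, fell by 0.79 ± 0.19 (log2, SE, edgeR adjusted p 0.0259 and 0.00749), while Hlf was not called. Nfil3 split the control females as Arntl did, at 7.19, 6.66, 35.7, 26.7 and 25.0 CPM, against 25.5, 39.97, 38.5 and 38.0 CPM in KO females. Of 10 kinase and turnover genes Fbxw11 and Gsk3b rose, near the 20.9% of all tested genes called here. Of 10 tested outputs Lonrf3, Nampt and Alas1 rose while Noct fell.

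Islet endocrine markers moved with the genotype in these libraries. They summed to between 271526 and 407805 CPM in control and to between 156303 and 183084 CPM in KO islets, with 5 of 7 called lower and none at 0. Of 5 fibroblast markers 2 were called higher. The shares over all tested genes were 9.29% called lower and 11.6% called higher. Immediate early genes, which answer to handling, summed to between 187 and 272 CPM in control and 147 and 176 CPM in KO islets, with 1 of 10 called higher and 3 lower. Their part in the clock gene differences was not tested.

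Islets labelled Clec16a KO were compared with islets labelled control on each diet, to ask which clock genes differed with that label. On RFD 1 of the 10 members was called, Per3, which was lower, against 7.52% of the 17254 tested genes called and 3.54% called lower. On HFD 4 of the 10 were called, against 9.57% of genes: Arntl was higher (5.62% of genes) and Per3, Dbp and Cry2 were lower (3.95%). At an unadjusted edgeR p under 0.05 there were 5 members on RFD and 4 on HFD, against 3866 and 4001 of all tested genes. The members' median log2 fold change was -0.13 on RFD and -0.33 on HFD, and that of all tested genes -0.0016 and -0.0019. One library stood apart, KO HFD replicate 1. It had the highest Arntl and the lowest Per1, Per2, Per3, Nr1d2, Dbp, Cry2 and Nr1d1 of its group. The 4 members called on HFD are therefore also given without it. Genotype label and time of collection cannot be told apart here either.

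Per3 on RFD measured 65.6, 57.3, 66.5 and 64.5 CPM in control and 26.8, 32.5, 20.8 and 19.9 CPM in KO libraries. Every KO library lay below every control library. Per3 was 2.55-fold lower, a log2 fold change of -1.35 ± 0.26 (SE) with an edgeR adjusted p of 0.00534. It was called in all 8 fits that left out 1 library and under all 8 other settings tried.

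On HFD, Per3 ran from 44.0 CPM over a median of 52.7 to 70.3 CPM in the 6 control libraries, and measured 10.502, 26.6, 36.6, 37.2 and 36.8 CPM in the 5 KO libraries. The groups again did not overlap, as in 2.60% of all tested genes. Per3 was 1.82-fold lower, a log2 fold change of -0.86 ± 0.22 (SE) with an edgeR adjusted p of 0.0191, and of -0.65 without KO HFD replicate 1. Without KO HFD replicate 2 its adjusted p was 0.0568, and in a fit of the HFD libraries alone it was 0.0525.

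Arntl on RFD measured 3.34, 6.35, 6.39 and 7.80 CPM in control and 12.8, 10.6, 15.4 and 10.99 CPM in KO libraries. On HFD it ran from 3.67 over a median of 4.78 to 8.93 CPM in control and measured 33.3, 12.6, 7.04, 15.6 and 8.44 CPM in KO libraries. The groups were separate on RFD and overlapped on HFD, where KO replicates 3 and 5 fell within the control range. The log2 fold change was 1.05 ± 0.38 (SE) on RFD, not called at an edgeR adjusted p of 0.102, and 1.48 ± 0.33 on HFD, a 2.79-fold higher level with an adjusted p of 0.00788. Without KO HFD replicate 1 the HFD value was 0.99 and was still called.

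Dbp on RFD measured 115, 126, 201 and 175 CPM in control and 93.9, 113, 60.0 and 64.6 CPM in KO libraries. On HFD it ran from 74.7 over a median of 113 to 204 CPM in control and measured 26.8, 55.5, 78.2, 78.2 and 63.4 CPM in KO libraries. The RFD groups did not overlap, and on HFD control replicate 2 lay below KO replicates 3 and 4. Dbp had a log2 fold change of -0.90 ± 0.31 (SE, edgeR adjusted p 0.0801) on RFD and of -0.998 ± 0.27 (adjusted p 0.0227) on HFD. The HFD call was lost without control replicate 3 or KO replicate 1 or 2, and without KO replicate 1 the value was -0.81.

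Cry2, a repressor of the pair, on HFD ran from 124 over a median of 147 to 153 CPM in control and measured 82.3, 108, 109.6, 126 and 119 CPM in KO libraries. Only KO replicate 4 reached the control range, above control replicate 1. The log2 fold change was -0.41 ± 0.11 (SE) with an edgeR adjusted p of 0.0263. This call was lost without control replicate 2 or KO replicate 1, 2 or 3, and without KO replicate 1 the value was -0.32 with an adjusted p of 0.0833. On RFD, with 135, 154, 148 and 165 CPM against 134, 137, 94.1 and 104 CPM, it was -0.36 ± 0.13 with an adjusted p of 0.100.

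On RFD, 3 members did not overlap between KO and control libraries, Per3, Dbp and Arntl, against 15.1% of all tested genes. The remaining members had log2 fold changes between -0.48 (Nr1d2) and 0.06 (Per1) on RFD and between -0.38 (Nr1d1) and 0.03 (Cry1) on HFD, none called. The HFD count of 4 fell to 1 without KO HFD replicate 2 (Arntl remained) and to 2 without KO HFD replicate 1. With the exocrine marker level as a covariate the RFD count was 3 (Per3, Dbp and Cry2), and in a fit of the RFD libraries alone it was 3 (Per3, Dbp and Arntl). A term for the sequencing lane left the counts at 1 and 4.

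**Figure D2:**
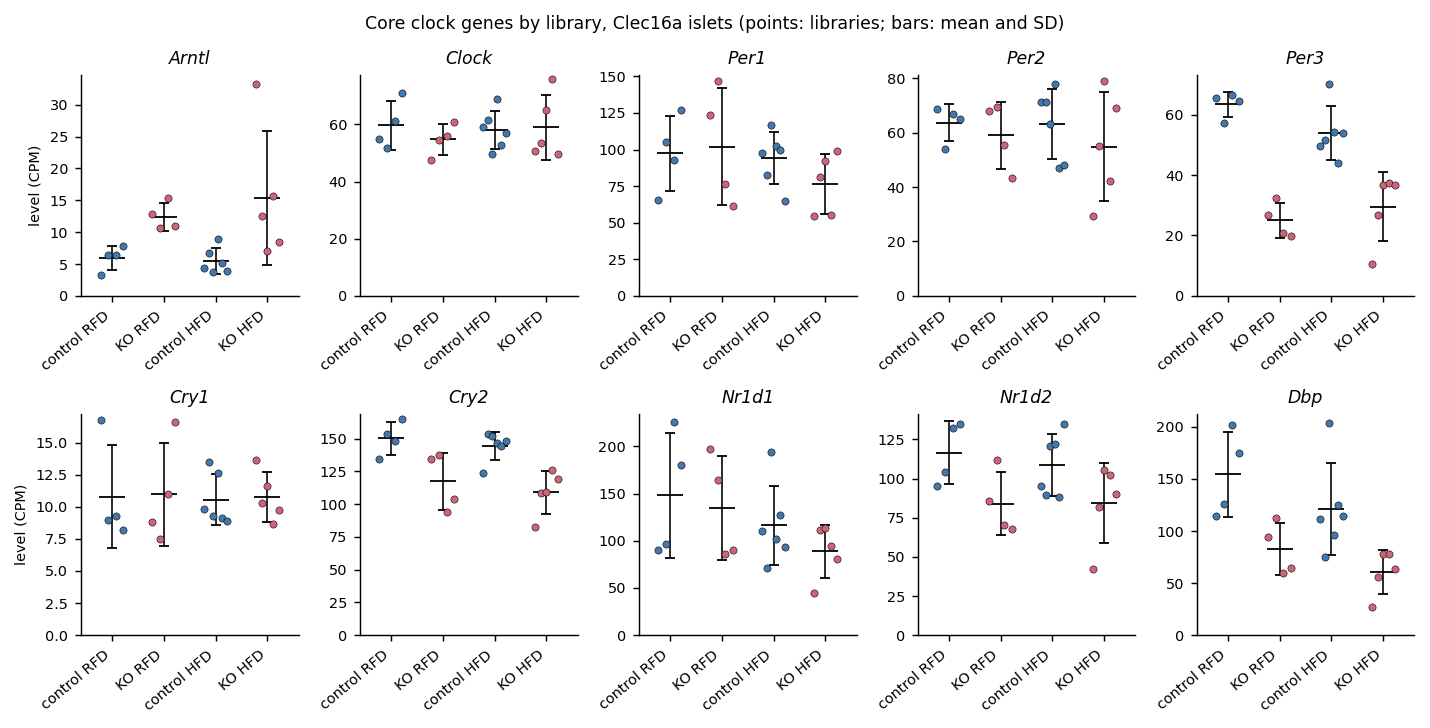
Level of each core clock gene in CPM (vertical axis, from 0) in the 19 Clec16a islet libraries by labelled genotype and diet, with points for libraries and bars for mean and SD. In the Per3 panel all KO libraries (at most 37.2 CPM) lie below all control libraries (at least 44.0 CPM) of either diet.

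Diet was compared within each genotype label. No member was called between HFD and RFD in control islets (log2 fold changes from -0.35 for Dbp to -0.01 for Per2, 0.0406% of genes called) or in KO islets (from -0.59 for Nr1d1 to 0.30 for Arntl, 0.0116% of genes called). Nor was any called for the interaction of genotype with diet, which for Per3 was 0.49 ± 0.34 (SE) and for Arntl 0.43 ± 0.50, with no gene called among all 17254. In these 3 comparisons no member had an unadjusted p under 0.05 by edgeR, and DESeq2 called none.

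Accessory genes of the loop moved in the same libraries. Npas2, a paralog of Clock, measured between 0.192 and 1.55 CPM in control and between 2.49 and 16.5 CPM in KO islets. No KO library thus reached down to a control library. Within a diet, 15.1% of all tested genes on RFD and 2.60% on HFD did not overlap between labels. Its log2 fold change was 2.58 ± 0.57 (SE) on RFD and 2.79 ± 0.48 on HFD, with edgeR adjusted p of 0.0107 and 0.00145. Bhlhe41, a repressor that competes at E-boxes, fell by 1.0 ± 0.16 and 0.90 ± 0.14 on the log2 scale (edgeR adjusted p 0.00218 and 0.000604). These were the only 2 of 8 tested accessory factors called on either diet, against 7.52% of all tested genes on RFD and 9.57% on HFD.

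Of the 3 factors that bind D-boxes, Nfil3 rose by 1.57 ± 0.36 on RFD and 1.53 ± 0.30 on HFD and Tef fell by 0.89 ± 0.22 and 0.81 ± 0.19 (log2, SE, edgeR adjusted p between 0.00352 and 0.0197). Nfil3 lay between 4.79 and 10.8 CPM in control and between 13.02 and 48.7 CPM in KO libraries, and Tef between 124 and 167 CPM and between 35.6 and 111 CPM. Neither gene overlapped between labels on either diet, as in 15.1% of all tested genes on RFD and 2.60% on HFD. Of 10 tested outputs, Upp2, a uridine phosphorylase, and Nampt, an enzyme of NAD synthesis, fell on both diets. None of the 10 kinase and turnover genes was called. Among all tested genes 7.52% were called on RFD and 9.57% on HFD.

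Endothelial markers moved with the label as well. Of 5 such genes, 4 were called higher on each diet, and their sum ran from 256 to 352 CPM in control and from 301 to 586 CPM in KO islets, with none at 0. Of 5 fibroblast markers, 1 was called higher on RFD and 3 on HFD. Among all tested genes 3.99% were called higher on RFD and 5.62% on HFD. Their part in the clock gene differences was not tested.

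In the livers, Mfn DKO and Tfam KO were each compared with the same 6 control livers, so the comparisons share their controls. As in the islets, genotype and the unlabelled time of collection cannot be told apart. For Mfn DKO none of the 10 members was called by edgeR with Benjamini-Hochberg adjustment, against 9.87% of the 17024 tested genes. At an unadjusted edgeR p under 0.05 there were 2, Arntl and Per1, against 4704 of all tested genes. DESeq2 called 1, Arntl, against 2870 of the 17024 genes. For Tfam KO 2 of 10 were called, Cry2 and Nr1d1, both lower, against 29.3% of genes called and 11.3% called lower. At an unadjusted edgeR p under 0.05 there were 5 members for Tfam KO, against 7133 of all tested genes. The median log2 fold change of the members was -0.39 and -0.57, and that of all tested genes 0.02 and 0.03.

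Cry2 ran from 39.9 over a median of 53.0 to 63.1 CPM in control livers and measured 32.0, 24.5 and 46.2 CPM in Tfam KO and 39.4, 49.97, 37.6 and 37.6 CPM in Mfn DKO livers. Tfam KO replicate 3 and Mfn DKO replicate 2 lay within the control range. The log2 fold change was -0.62 ± 0.19 (SE) for Tfam KO with an edgeR adjusted p of 0.0283, and -0.36 ± 0.17 for Mfn DKO with 0.196.

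Nr1d1, which encodes REV-ERBα, the repressor of Arntl, ran from 19.6 over a median of 34.6 to 74.1 CPM in control livers. It measured 11.01, 16.6 and 22.8 CPM in Tfam KO livers and 20.0, 45.5, 23.1 and 14.3 CPM in Mfn DKO livers. Control replicate 6 lay below Tfam KO replicate 3. Nr1d1 was 2.40-fold lower in Tfam KO livers, a log2 fold change of -1.26 ± 0.45 (SE) with an edgeR adjusted p of 0.0487. For Mfn DKO it was -0.65 ± 0.39 with an adjusted p of 0.304.

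Arntl ran from 0.781 over a median of 2.78 to 4.09 CPM in control livers and measured 9.57, 2.32, 3.71 and 17.7 CPM in Mfn DKO and 2.46, 5.32 and 5.70 CPM in Tfam KO livers. Mfn DKO replicates 1 and 4 lay above every control, the other 2 within the control range. The log2 fold change was 1.75 ± 0.58 (SE) for Mfn DKO with an edgeR adjusted p of 0.0724, and 1.05 without replicate 4. For Tfam KO it was 0.86 ± 0.63 with an adjusted p of 0.319.

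Dbp ran from 50.8 over a median of 87.6 to 158 CPM in control livers and measured 54.5, 100.4, 78.7 and 21.9 CPM in Mfn DKO and 61.3, 15.3 and 47.6 CPM in Tfam KO livers. Mfn DKO replicate 4 and Tfam KO replicate 2 were the lowest of their groups, and all groups overlapped. The log2 fold changes were -0.52 ± 0.45 (SE) and -1.14 ± 0.52, with edgeR adjusted p of 0.485 and 0.111.

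Of the period genes, Per2 ran from 57.8 over a median of 61.7 to 101 CPM in control livers and measured 44.9, 52.9, 55.1 and 37.4 CPM in Mfn DKO livers, all below the controls. It was the only member whose Mfn DKO and control livers did not overlap, against 19.2% of genes, and its log2 fold change of -0.51 ± 0.28 (SE) had an edgeR adjusted p of 0.254. In Tfam KO livers Per2 measured 57.8, 19.4 and 65.9 CPM, Per3 25.2, 10.7 and 57.1 CPM and Per1 53.1, 26.9 and 48.1 CPM. Replicate 2 was the lowest in all 3 genes. Per1 had a log2 fold change of -0.66 ± 0.24 for Tfam KO with an edgeR adjusted p of 0.0520. No member separated Tfam KO from control livers, against 20.9% of genes.

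Clock, Cry1 and Nr1d2 were not called in either comparison. Their log2 fold changes were 0.45, 0.14 and 0.14 for Mfn DKO and 0.50, 0.08 and -0.24 for Tfam KO. Between Tfam KO and Mfn DKO livers no member was called by edgeR (lowest adjusted p 0.460, none at an unadjusted p under 0.05, none by DESeq2, 0.294% of genes called), with values from -0.89 for Arntl to 0.05 for Clock. Without Tfam KO replicate 3, 1 member was called there.

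**Figure D3:**
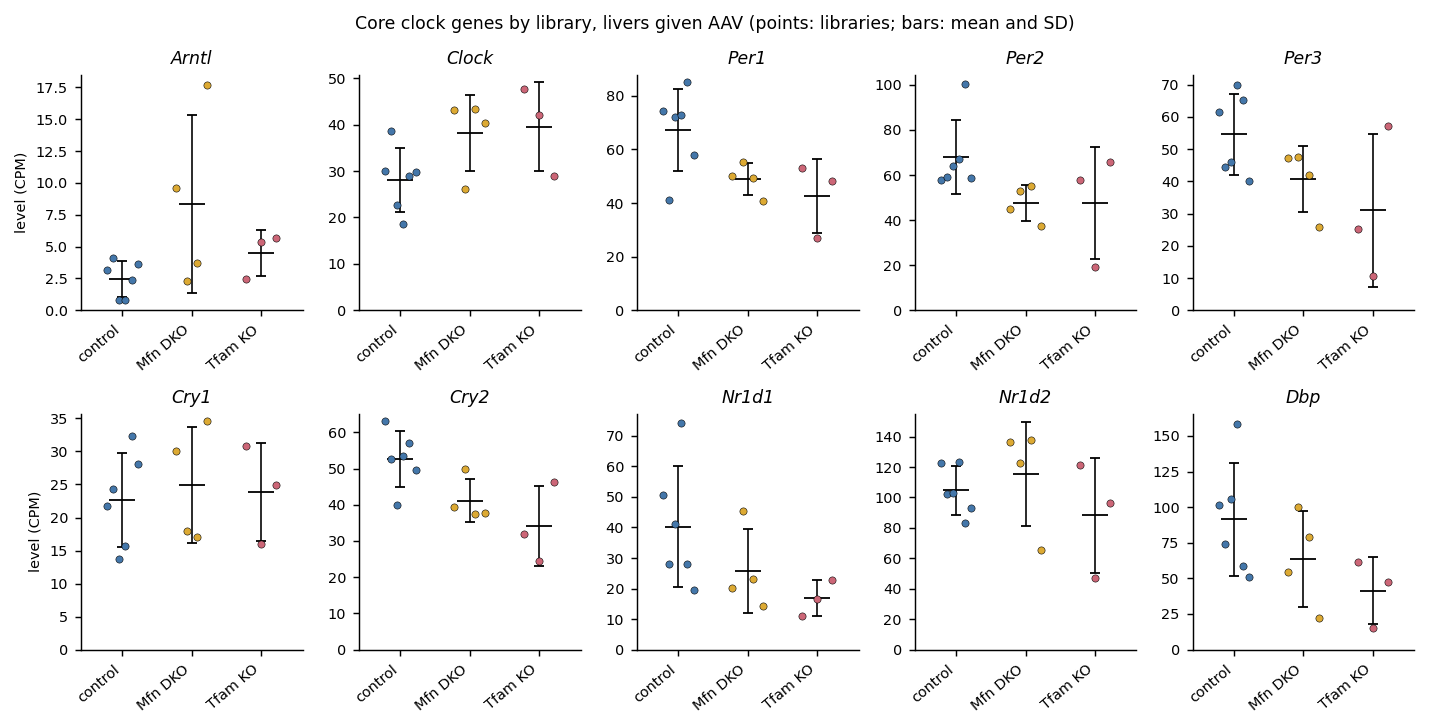
Level of each core clock gene in CPM (vertical axis, from 0) in the 13 liver libraries by genotype, with points for libraries and bars for mean and SD. Arntl reaches 17.7 CPM in Mfn DKO replicate 4 against at most 4.09 CPM in the controls, and all Tfam KO values of Nr1d1 are at most 22.8 CPM.

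The Tfam KO liver calls rested on few libraries. The count of 2 fell to 0 without control replicate 1 or Tfam KO replicate 2, fell to 1 without control replicate 3 or 4 or Tfam KO replicate 1, and rose to 5 without Tfam KO replicate 3. Of the 9 fits without 1 library, Cry2 was called in 6 and Nr1d1 in 3. The count was 0 in a fit of the compared groups alone, 1 without a filter on low counts, and 4 with the DESeq2 Wald test, which added Dbp and Per1. It was 3 with DESeq2 size factors or at least 10 counts in every library, which added Per1, and 3 with Xist as a covariate, which added Clock. For Mfn DKO a fit of the compared groups alone called 2, Arntl as higher and Per2 as lower, against 4338 of 16080 tested genes.

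Of the loop's other factors in Tfam KO livers, 2 of 3 that bind D-boxes, 3 of 11 outputs, 3 of 10 kinase and turnover genes and 0 of 8 accessory factors were called by edgeR, against 29.3% of all tested genes. Among the accessory factors 2 had an unadjusted p under 0.05. Tef fell by 0.99 ± 0.29 and Hlf, also a paralog of Dbp, by 0.94 ± 0.31 (log2, SE, edgeR adjusted p 0.0225 and 0.0355). Both lay below all control livers, and 20.9% of all tested genes did not overlap between these groups. Tef ran from 261 to 321 CPM in control livers and measured 149, 64.8 and 214 CPM in Tfam KO livers. Of the outputs Por, Gys2 and Usp2 fell, by 0.77, 1.87 and 1.40 on the log2 scale, and none rose. Csnk1e, a kinase that marks PER proteins for turnover, rose by 1.07 ± 0.24, Fbxw11 rose by 0.47 ± 0.10 and Fbxl21 fell by 1.12 ± 0.28. In Mfn DKO livers, where 9.87% of all tested genes were called, Rora rose by 0.75 ± 0.16. Cipc, an inhibitor of CLOCK, and Hdac3, the deacetylase through which REV-ERBs repress, fell there by 0.53 ± 0.12 and 0.44 ± 0.11. No output was called there by edgeR (2 of 11 at an unadjusted p under 0.05).

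Hepatocyte markers moved with both liver labels. Their sum ran from 87930 to 133891 CPM in control, from 20682 to 89782 CPM in Tfam KO and from 73572 to 91940 CPM in Mfn DKO livers, with none of the 6 at 0. In Tfam KO livers 4 of the 6 were called lower, and in Mfn DKO livers 1, Tat, was called higher. Among all tested genes 29.3% were called for Tfam KO and 9.87% for Mfn DKO. Those 4 did not overlap the controls in Tfam KO livers, against 20.9% of all tested genes. In Mfn DKO livers 5 of the 6 did not overlap, against 19.2%, but not in 1 direction. There Cyp2e1, Apoa1, Serpina1a and Ttr were lower and Tat was higher. Immediate early genes summed to between 95.3 and 178 CPM in control, between 213 and 276 CPM in Tfam KO and between 169 and 265 CPM in Mfn DKO livers, with 4 of 10 called higher and 1 lower in Tfam KO and 1 each way in Mfn DKO livers. Their part in the clock gene differences was not tested.

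The effect of Tfam KO was compared between livers and islets in 1 fit, where tissue, culture and experiment cannot be told apart. Only Cry2 of the 10 members was called, against 18.5% of the 21096 tested genes. Its effect was lower in livers by 0.75 ± 0.23 on the log2 scale (SE, edgeR adjusted p 0.0287), from -0.62 in livers and 0.12 in islets. That call was lost without control male 2, KO male 1 or 2, or liver Tfam KO replicate 1 or 2. For Arntl, Per3 and Dbp the differences were -0.18 ± 0.71, 0.31 ± 0.61 and -0.06 ± 0.54, SEs too wide to show that the tissues acted alike.

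**Figure D4:**
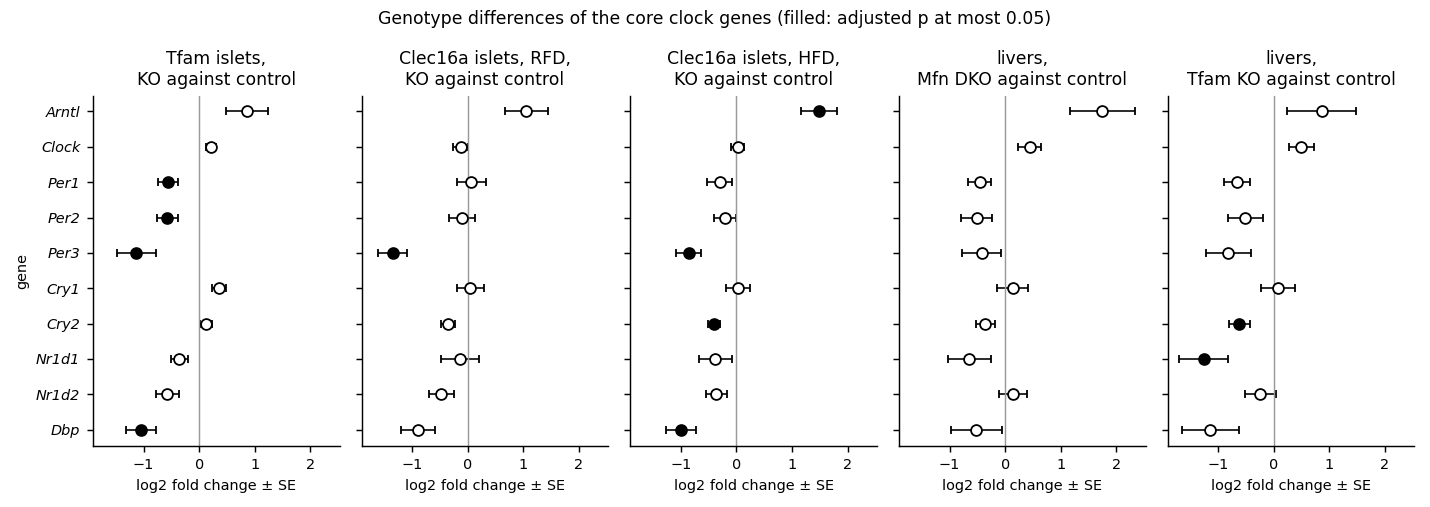
Log2 fold change with its SE (horizontal axis) for each core clock gene (vertical axis) in the 5 genotype comparisons, where filled points have an adjusted p of at most 0.05. Arntl lies to the right of 0 and Per2, Per3, Nr1d1 and Dbp to the left in all 5 panels. The 2 liver panels share their controls, and Arntl was called on HFD only.

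Arntl and Dbp were set against each other across libraries, since the loop drives them to opposite phases. In the Tfam islets the libraries fell into separate sets by Arntl, so no pooled coefficient is given. The permutation test was run there too, and its relations are among the 27 of the adjustment below. Dbp, Nr1d2 and Per3 passed by Pearson r, all negative (adjusted permutation p = 0.00297, 0.00985 and 0.0312). Per3 did not pass by Spearman rho (0.0772). These results cannot be told apart from the separate sets. In the livers, after group means were removed, Dbp and Arntl had a Pearson r of -0.762 and a Spearman rho of -0.780 over 13 libraries (permutation p = 0.00462 and 0.00349, libraries permuted within groups). Adjusted over the 27 relations of Arntl with the other members in the 3 experiments, these were 0.0312 and 0.0314. Without the 2 libraries farthest in Arntl r was -0.659. It was -0.829 over the 7 livers with Xist above 100 CPM and -0.830 over the other 6. Without the 2 farthest of each of these sets it was -0.667 and -0.536. The group means removed were those of all 13 livers. No other member passed in the livers, Cry1 coming next with r of 0.677 (adjusted permutation p = 0.140).

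In the 19 Clec16a islets no relation passed. Per3 had an r of -0.671 with Arntl (adjusted permutation p = 0.135), which was -0.288 without the 2 libraries farthest in Arntl, so the pooled relation rested on those. Within lanes the r of Per3 was -0.860 over 10 libraries and -0.346 over 9, and -0.695 and 0.053 without the 2 farthest. Dbp had -0.539 (adjusted permutation p = 0.161), and -0.213 without 2 libraries. Within lanes the r of Dbp was -0.695 and -0.423, and -0.740 and 0.362 without the 2 farthest. Group means of all 19 libraries were removed here, not those of each lane.

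The ratio of Dbp to Arntl in TPM showed how far single libraries stood apart. In control female Tfam islets it ran from 2.95 to 49.8, in control males from 21.4 to 126 and in KO females from 2.09 to 11.1. In Clec16a islets it ran from 27.1 to 139 on HFD and 49.8 to 86.3 on RFD in control, against 2.03 to 27.9 and 9.80 to 26.8 in KO libraries. Control livers ran from 35.2 to 510, Mfn DKO livers from 3.11 to 109 and Tfam KO livers from 7.22 to 62.7. Ratios of KO and control libraries did not overlap in the RFD islets or in the male Tfam islets, where KO reached at most 11.02, and overlapped in the other sets.

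**Figure D5:**
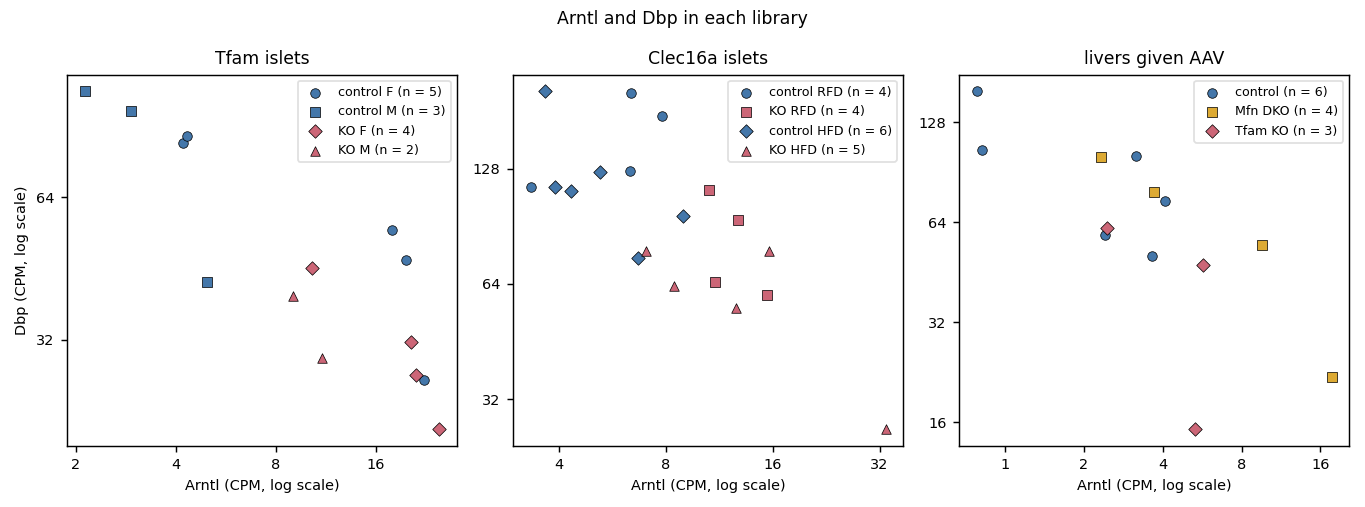
Dbp against Arntl, both in CPM on log scales, in each of the 46 libraries, 1 panel per experiment, with colour and shape for the group. Dbp runs from 107 CPM of Dbp at 2.13 CPM of Arntl down to 20.7 at 24.9 CPM in the Tfam islets.

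The genes whose pattern within groups was most like a member's were ranked by Pearson r over the group-centred log2 CPM of all libraries of an experiment, as a description. For the Tfam islets, with their separate sets, only ranks are given. For Dbp, Tef ranked first of 10854 genes there and followed Ezh1 and Hdac10 in the Clec16a islets (r of 0.821 over 19 libraries). In the livers Nr3c2, a mineralocorticoid receptor, ranked first (0.922 over 13). For Arntl the first were Nfil3 in the Tfam islets, Tacc2 in the Clec16a islets (0.811) and Litaf in the livers (0.973).

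Annotated neighbours bear on these counts, since the strandedness of the counting is not given in the sources used here. On GRCm38, Per3 (chr4:151003652-151044665, minus strand) lies within Camta1 on the same strand over all of its 41014 bases. Camta1 was called higher in Tfam KO islets, by 0.37 on the log2 scale (edgeR adjusted p 0.00256), where Per3 was lower. On RFD, in the Clec16a islets, Camta1 was called lower as Per3 was, at -0.51 ± 0.15 (SE, edgeR adjusted p 0.0456). It was not called on HFD at -0.35, in Tfam KO livers at -0.37 or in Mfn DKO livers at 0.16. Dbp (chr7:45705088-45710203, plus strand) overlaps Sphk2 on the other strand by 737 bases, and Sphk2 was called in none of the 5 genotype comparisons. Its log2 fold changes were opposite in sign to Dbp in the islets (0.21 for Tfam KO, 0.24 on RFD and 0.12 on HFD) and the same in the livers (-0.30 for Mfn DKO and -0.56 for Tfam KO). Nr1d1 (chr11:98767932-98775333, minus strand) overlaps Thra by 1075 bases, which in Tfam KO livers fell, as Nr1d1 did, by 0.42 ± 0.14 (SE, edgeR adjusted p 0.0383). Cry2 (chr2:92403646-92434043, minus strand) shares 23417 bases with D930015M05Rik on the other strand, at 0.29 ± 0.50 in Tfam KO livers. Arntl (chr7:113207465-113314126, plus strand) overlaps only Gm45355, which was too low to test.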

How the data were processed

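RNA-seq libraries of mouse islets and livers were analysed from the deposited raw counts per gene, which are whole numbers per the file headers. The authors' TPM columns were used to compare levels between genes, and the authors' CPM columns were only checked against the counts. The submitters' processing notes name STAR 2.6.1b, RSEM 1.3.1, featureCounts and the build GRCm38. Which tool made the counts, the annotation and the strand setting are not given in the sources used here.

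Separate fits were made for each experiment with edgeR 4.0.16 under R 4.3.3 (TMM scaling, filterByExpr on the group, quasi-likelihood F-test, two-sided) and Benjamini-Hochberg adjustment over all tested genes. All 10 members passed the filter in each fit. Genes with an adjusted p of at most 0.05 were called. The SE of a log2 fold change is its size over the square root of F. CPM in the text are on TMM-scaled library sizes, and log2 CPM use a prior count of 2. Correlations were permuted 100000 times within groups. Depth is the total count, and intervals reflect spread between libraries. The fits were tested on simulated data.

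Alternatives were size factors of DESeq2, no filter, at least 10 counts in every library, the Wald test of DESeq2 1.42.0, each library left out, a replicate block, covariates (exocrine markers, lane, Xist), no sex term and only the compared groups. Fits of 1 sex alone were added after the data were seen. The lane, from the names of the deposited files, was known for the Clec16a islets only.

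The members, gene lists and comparisons were chosen with earlier results of these data known. Named genes are the members, at most 5 called genes of each list, the targeted genes and the 5 genes with the patterns most like Arntl and like Dbp (mean CPM of at least 5). Xist and the genes that overlap a member fall outside that rule and were chosen after their values were seen. Positions come from GENCODE M21, which holds 55141 of the 55487 identifiers. One result among the accessory factors is not reported here.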

Additional observations from a re-analysis of the deposited data

Results flagged for a closer look

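Each member was examined in every group of 4 to 10 libraries for a library far from the others by Dixon's test on log2 CPM. Of 80 such sets 7 held one, and chance flags about 1 in 20 groups. In the Clec16a islets on HFD, control replicate 1 had 123.88 CPM of Cry2 (others 144.59 to 153.35). There, KO replicate 1 had 10.502 CPM of Per3 (others 26.637 to 37.213) and 42.193 CPM of Nr1d2 (others 81.713 to 105.3). Control liver replicate 5 had 100.52 CPM of Per2 (others 57.839 to 67.062). Mfn DKO liver replicate 2 had 26.145 CPM of Clock (others 40.415 to 43.302) and 49.972 CPM of Cry2 (others 37.594 to 39.407). Mfn DKO liver replicate 4 had 65.333 CPM of Nr1d2 (others 122.59 to 138.01). The effect of Tfam KO on Cry2 differed between tissues, by -0.74743 on the log2 scale, livers minus islets.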

How the results depend on the processing

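Per3 on RFD and Arntl on HFD in the Clec16a islets were called in every fit that left out 1 library and under all 8 other settings. Dbp in the Tfam islets was called in all 14 fits that left out 1 library, but in neither sex alone. In the Tfam islets the count of 4 called members became 7 with a replicate block, 2 without a sex term and 1 in females only, and it was 6 with the Wald test of DESeq2, 6 without a filter and 5 with at least 10 counts in every library. On HFD it went from 4 to 2 with the block, and on RFD from 1 to 3 with the exocrine covariate and to 3 with only the compared groups. For Mfn DKO livers it went from 0 to 1 with the DESeq2 Wald test and to 2 with only the compared groups. For Tfam KO livers it went from 2 to 1 without a filter, 4 with the Wald test, 0 with the block and 0 with only the compared groups, and it was 3 with size factors of DESeq2, at least 10 counts or the Xist covariate. Fits without 1 library called 1 to 6 in the Tfam islets, 1 to 4 on HFD, 0 to 5 for Tfam KO livers, 0 to 1 between the knockout livers and 0 to 1 between tissues.

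In the 5 comparisons of a knockout with control, reversed signs, all in members not called, were -0.11 for Cry1 in Tfam males only, -0.026 for Cry1 on HFD with the block, -0.22 for Per1 on RFD with the exocrine covariate, -0.040 for Cry1 and 0.027 for Nr1d1 on RFD and -0.0048 for Clock on HFD with a lane term, and -0.012 for Nr1d2 in Mfn DKO livers with the block. Leaving out 1 library also reversed signs, with ranges on HFD of -0.085 to 0.079 for Clock and -0.070 to 0.106 for Cry1. On RFD these were -0.196 to 0.014 for Per2, -0.235 to 0.330 for Cry1, -0.166 to 0.242 for Per1 and -0.383 to 0.135 for Nr1d1. In Mfn DKO livers Cry1 ranged from -0.081 to 0.282, and in Tfam KO livers Cry1 from -0.148 to 0.301 and Nr1d2 from -0.547 to 0.060. In the other 6 comparisons signs of members not called reversed 117 times, 18 for genotype by sex, 24 and 19 for diet in control and KO islets, 23 for genotype by diet, 20 between the knockout livers and 13 between tissues. The cause was not tested.

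Whether the replicate numbers shared between groups pair the libraries was not settled. In the Tfam islets, Clec16a islets and livers, the median correlation of deviations between same-numbered libraries was 0.0653, -0.0163 and 0.0873. Between libraries of other numbers it was -0.0117, -0.0123 and -0.0450. In turn 5 of 13, 1 of 18 and 4 of 11 libraries correlated best with their own number, and no chance rate was taken. Each member had at least 38 counts in every library, and groups held 2 to 6 libraries.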
